A study of Mus musculus with 6 samples.

Results

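The genes described here are 39 mouse genes of the Hippo pathway, 23 of its core (kinases and their scaffolds, upstream regulators, the coactivators YAP and TAZ, the TEAD factors and proteins that restrain them) and 16 target genes of YAP and TAZ. They were chosen by symbol, and all 39 were found among the 49671 genes counted in each library. RNA came from mouse induced renal epithelial cells (iRECs), made from fibroblasts by forced expression of kidney transcription factors, of the strain B6.129S4-Pkd1tm2Ggg/J. Cre cultures were transduced with Cre recombinase and are labelled as Pkd1 knockout (Pkd1 -/-), and Flp cultures were transduced with Flp recombinase and are labelled as Pkd1 wild type (Pkd1 fl/fl). Each group had 3 libraries, from clones 4, 7 and 21, and the series sets each Cre culture against the Flp culture of the same clone. All cultures were derived from cells with the floxed allele, were kept in a fibroblast medium with serum and were grown to confluence before total RNA was taken. Each line is a single clone in culture. Since no label gives the animals the clones were derived from, p-values cover only the spread between these clone pairs.

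In the Hippo pathway, MST kinases with their scaffold SAV1 activate LATS kinases with their MOB1 partners, and LATS kinases phosphorylate the coactivators YAP and TAZ, which keeps them out of the nucleus. YAP and TAZ that reach the nucleus bind TEAD transcription factors and switch on genes of growth, matrix and the cytoskeleton. In the kidney the pathway is known for its part in nephron formation, and YAP and TAZ activity has been studied in polycystic kidney disease, in which Pkd1, the gene of polycystin-1, is often mutated.

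Total counts were 29451753 to 46918341 in Cre libraries and 25196120 to 40274665 in Flp libraries, with more reads in Cre than in Flp for clones 4 and 21 and fewer for clone 7. Levels are CPM, counts relative to library size, after scaling by trimmed mean of M-values (TMM), and a count of 0 allowed up to 0.0632 to 0.121 CPM by counting error alone. Pkd1 was at 145, 105 and 118 CPM in Cre clones 4, 7 and 21, against 199, 229 and 166 CPM in Flp clones 4, 7 and 21. Its exons overlap those of Tsc2, and without strand the reads of overlapping genes could not be told apart. The epithelial junction and keratin genes Cdh1, Cdh16, Epcam, Krt8 and Krt18 averaged 212 to 938 CPM, with summed levels of 2387 to 3647 CPM in Cre and 2532 to 3556 CPM in Flp. Of 8 fibroblast markers 3 reached 1 CPM and Thy1 was at 0, with sums of 13.1 to 22.2 CPM in Cre and 6.19 to 35.1 CPM in Flp, and no endothelial marker of 5 reached 1 CPM, with Cdh5, Kdr and Emcn at 0.

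TEAD factors recognise the letters GGAATG, so the RefSeq promoters (GRCm38.p6) of the members were searched for this motif on both strands, where it reads CATTCC on the other strand. Of 39 members, 29 matched an entry of 250 bases before to 50 bases after a start, and 14 of the 29 held the motif, 10 of 19 core members and 4 of 10 targets. Counted by promoter, 16 of 35 (45.7%) held it, against 4817 of 32851 (14.7%) of all promoters of that length, a description of these letters and not of binding. From the members that held the motif, the 250 bases before the start are shown for both coactivators, for 2 regulators and for 2 targets. These stretches are written 5′ to 3′ on the strand of the gene, with the motif in capitals. They lie at chr9:8004597-8004846 (Yap1, minus strand), chr3:57575911-57576160 (Wwtr1, minus strand), chr1:189728018-189728267 (Ptpn14, plus strand), chr14:54577662-54577911 (Ajuba, minus strand), chr3:145649986-145650235 (Ccn1, minus strand) and chr7:25788734-25788983 (Axl, minus strand).
Yap1: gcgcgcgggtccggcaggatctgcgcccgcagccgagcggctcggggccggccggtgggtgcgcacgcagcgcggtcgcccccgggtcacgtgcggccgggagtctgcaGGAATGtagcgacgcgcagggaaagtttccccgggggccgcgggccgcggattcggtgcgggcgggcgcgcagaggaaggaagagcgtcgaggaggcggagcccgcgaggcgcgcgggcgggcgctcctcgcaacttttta
Wwtr1: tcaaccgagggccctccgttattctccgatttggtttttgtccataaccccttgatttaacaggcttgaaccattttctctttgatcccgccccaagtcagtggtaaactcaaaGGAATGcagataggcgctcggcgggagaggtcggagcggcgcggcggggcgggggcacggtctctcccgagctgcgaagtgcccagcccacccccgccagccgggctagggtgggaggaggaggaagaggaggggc
Ptpn14: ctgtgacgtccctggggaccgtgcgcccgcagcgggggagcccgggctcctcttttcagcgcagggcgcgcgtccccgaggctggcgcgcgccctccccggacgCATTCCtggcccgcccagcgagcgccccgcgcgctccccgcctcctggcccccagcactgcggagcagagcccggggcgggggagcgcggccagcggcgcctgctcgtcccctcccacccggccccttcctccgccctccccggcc
Ajuba: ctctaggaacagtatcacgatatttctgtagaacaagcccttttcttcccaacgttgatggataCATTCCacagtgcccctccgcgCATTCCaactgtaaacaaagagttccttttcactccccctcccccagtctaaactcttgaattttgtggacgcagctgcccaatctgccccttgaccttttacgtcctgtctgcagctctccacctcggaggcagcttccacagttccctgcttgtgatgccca
Ccn1: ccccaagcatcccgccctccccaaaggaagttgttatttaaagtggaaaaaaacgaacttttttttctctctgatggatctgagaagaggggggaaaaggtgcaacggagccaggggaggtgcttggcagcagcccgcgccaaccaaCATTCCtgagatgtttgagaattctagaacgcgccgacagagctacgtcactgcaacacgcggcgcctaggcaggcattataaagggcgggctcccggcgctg
Axl: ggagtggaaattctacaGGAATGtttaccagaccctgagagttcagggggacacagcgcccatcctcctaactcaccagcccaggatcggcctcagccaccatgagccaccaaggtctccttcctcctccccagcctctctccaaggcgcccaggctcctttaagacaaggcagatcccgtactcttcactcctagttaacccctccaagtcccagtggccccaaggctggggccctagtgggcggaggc
The motif began 141 bases before the start in Yap1, 136 in Wwtr1, 146 in Ptpn14, 103 in Ccn1 and 233 in Axl. Ajuba held it at 186 and 164 bases before the start, and 1.36% of all promoters held 2 or more matches. The other members with a match were Amotl2, Ankrd1, Crim1, Lats2, Mob1a, Sav1, Tead3 and Vgll4. Of these, Ankrd1 also held 2 matches and a Tead3 promoter held 3, while the Lats2 match lay after the start. The 10 members without an entry, which were not searched, were Tead1, Tead4, Stk3, Limd1, Ccn2, Asap1, Fjx1, Ccdc80, Arhgef17 and Nuak2.

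The comparison of Cre with Flp asked whether the pathway or its targets differed with the loss of Pkd1. Of 39 members 36 passed the filter on low counts and were tested, and none of the 36 passed a Benjamini-Hochberg adjusted p of 0.05 over all 15355 genes in edgeR's quasi-likelihood test with clone as a block, where 0% of all genes passed. At an unadjusted p under 0.05 there were 2 members, Lats2 higher and Nt5e lower in Cre. Of all genes, 6.82% reached that level (3.54% higher and 3.28% lower in Cre). DESeq2 with the same block gave 3 members at that level (Ajuba, Lats2 and Nt5e), beside 1131 of 15355 genes. After adjustment DESeq2 gave no member, where 1.47% of its genes passed. The median log2 fold change (Cre over Flp) was 0.07 over the 23 core members and 0.01 over the 13 targets tested, beside 0.00 over all genes tested. The targeted gene Pkd1 had a log2 fold change of -0.69 (SE 0.16). Its adjusted p was 0.6065 in edgeR and 0.0269 in DESeq2 with the same block, so edgeR's test did not call the targeted gene either. In a bulk sample, fewer cells of a type and less RNA per cell cannot be told apart.

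Differences between the groups were small for most members. The median size of the log2 fold change, whatever its sign, was 0.10 over the 36 members, beside 0.11 over 9672 genes that averaged 10 CPM or more. A log2 fold change past 0.5 in either direction was seen in 2 members (Lats2 and Ajuba), or 5.56%, beside 15.3% of all genes tested and 6.30% of those that averaged 10 CPM or more. The 95% interval of the log2 fold change lay within 0.5 of 0 for 24 members and within 1 of 0 for 33. Between the highest and the lowest of the 6 libraries the median member differed 1.4-fold, 24 members stayed under 1.5-fold, and 6 passed 2-fold (Lats2, Stk4, Ajuba, Ankrd1, Fjx1 and Nuak2).

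**Figure D1:**
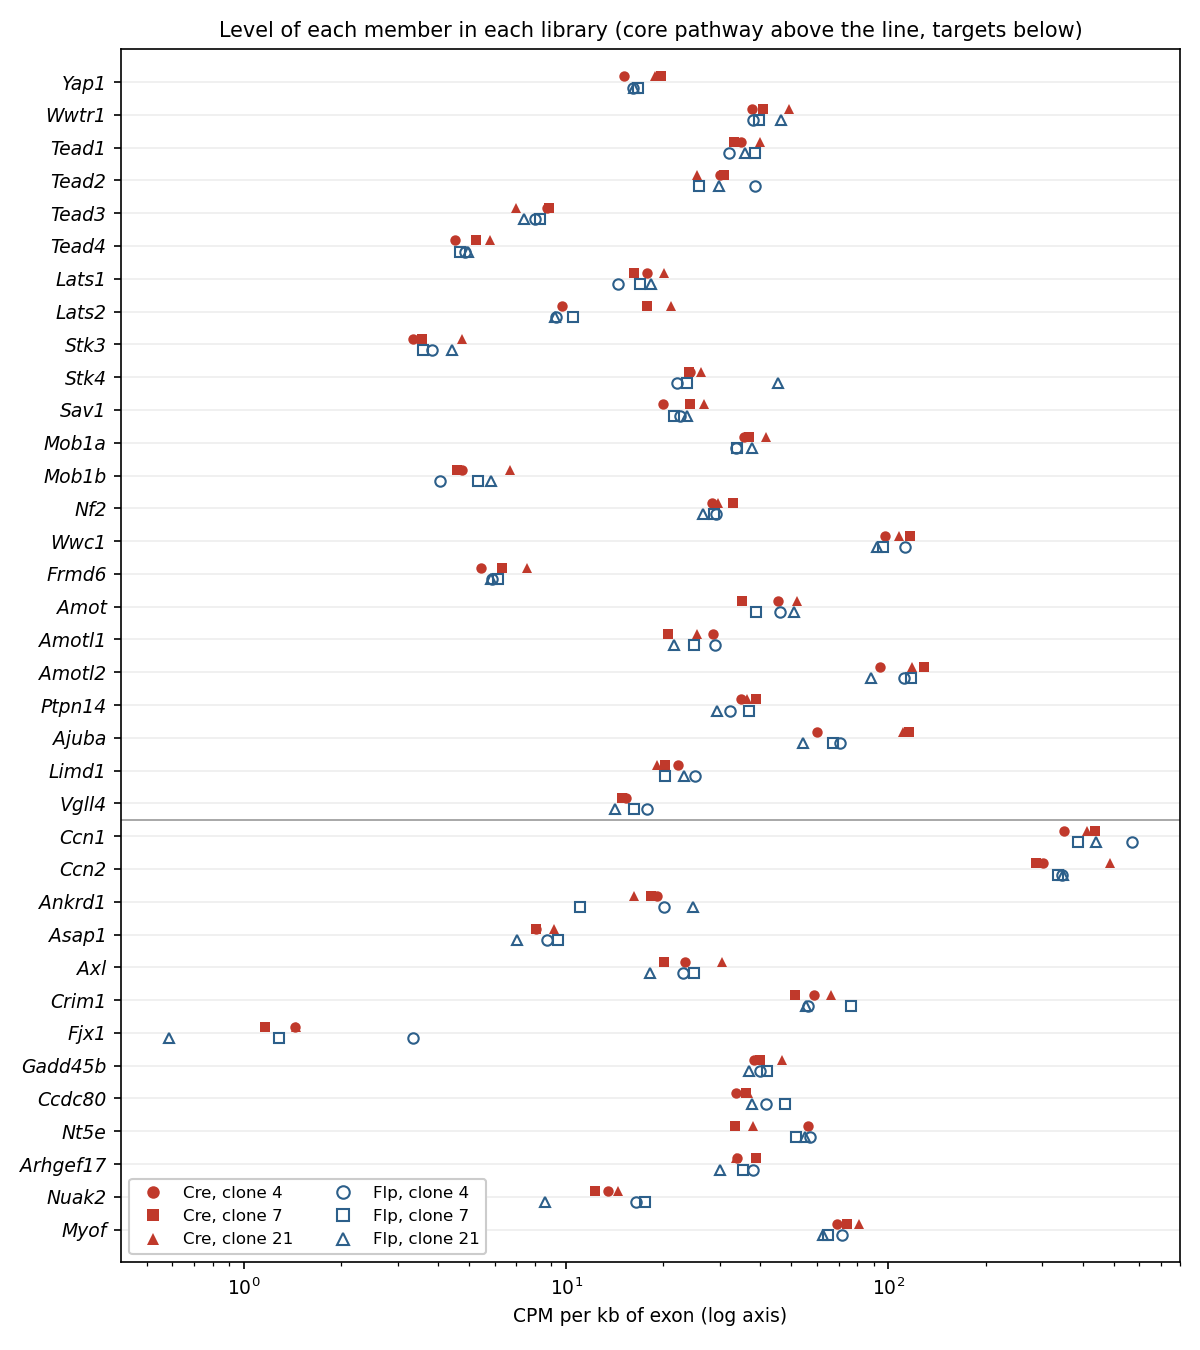
Level of the 36 members tested in each of the 6 libraries, in CPM per kb of exon on a log axis, with filled red symbols for Cre, open blue symbols for Flp and a symbol shape for each clone. Core members stand above the line and targets below, with Ccn1 and Ccn2 farthest to the right and Fjx1 farthest to the left; Lats2 and Ajuba lie apart in Cre clones 7 and 21, and Stk4 in Flp clone 21.

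The coactivators were expressed at similar levels in the groups. Yap1 (ENSMUSG00000053110, chr9:7931999-8004596, GRCm38), which encodes YAP, was at 139.6, 182 and 175 CPM in Cre clones 4, 7 and 21, against 149, 154 and 150.5 CPM in Flp clones 4, 7 and 21. Cre was the lower in clone 4 and the higher in clones 7 and 21, so the groups overlapped, with a log2 fold change of 0.12 (95% interval -0.16 to 0.40). Wwtr1 (ENSMUSG00000027803, chr3:57455649-57575910), which encodes TAZ, was at 181, 195 and 235.5 CPM in Cre, against 182, 189 and 221 CPM in Flp. Within each clone the Cre and Flp values were close, with a log2 fold change of 0.04 (95% interval -0.20 to 0.28). Per kb of exon, Wwtr1 gave 67.5% to 74.0% of the summed level of Yap1 and Wwtr1 in the 6 libraries.

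All 4 TEAD genes were expressed, and their order per kb of exon put Tead1 and Tead2 well above Tead3 and Tead4. Tead1 (ENSMUSG00000055320) was at 472, 450.5 and 541 CPM in Cre clones 4, 7 and 21, against 435, 522 and 488 CPM in Flp clones 4, 7 and 21. Tead2 (ENSMUSG00000030796) was at 143, 147 and 122 CPM in Cre, against 184, 123 and 142 CPM in Flp. For each gene the sign of the difference varied among clones, and the groups overlapped. Tead1 made up 38.4% to 51.1% of the summed level per kb and Tead2 32.5% to 46.1%, while Tead3 made up 8.93% to 11.3% and Tead4 5.79% to 7.43%. In Flp clone 4 Tead2 was the most abundant of the family, and in the other 5 libraries Tead1 was. The fitted log2 fold changes of the 4 genes lay between -0.11 (Tead2) and 0.09 (Tead4).

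Among the kinases, Lats2 stood apart from the rest. Lats1 (ENSMUSG00000040021), a kinase of YAP and TAZ, was at 129.7, 119 and 147 CPM in Cre clones 4, 7 and 21, against 106, 124 and 133 CPM in Flp clones 4, 7 and 21. These ranges overlapped, with a log2 fold change of 0.13 (SE 0.11). Its paralog Lats2 (ENSMUSG00000021959, chr14:57689662-57758388) was at 67.9, 124 and 148 CPM in Cre, against 65.0, 73.4 and 64.5 CPM in Flp. Lats2 was thus near the Flp levels in Cre clone 4 and well above them in Cre clones 7 and 21, although the lowest Cre value lay below the highest Flp value. Its log2 fold change was 0.67 (SE 0.22, 95% interval 0.13 to 1.22). Without clone 21 the log2 fold change was 0.41 and without clone 4 it was 0.98. The adjusted p of Lats2 was 0.6542 in edgeR and 0.143 in DESeq2 with the same block. In edgeR without the filter on low counts it was 0.052. In Cre clones 7 and 21 Lats2 made up 52.3% and 51.3% of the summed LATS level per kb, against 33.6% to 39.2% in the other 4 libraries.

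The MST kinases and their partners differed less between groups. Stk4 (ENSMUSG00000018209, chr2:164070322-164155524), which encodes MST1, was at 141, 141 and 153 CPM in Cre clones 4, 7 and 21, against 129, 139 and 265.5 CPM in Flp clones 4, 7 and 21. A single library, Flp clone 21, was far above the other 5, and the log2 fold change of -0.21 (SE 0.20) turned to 0.07 without that clone. Stk3, which encodes MST2, was lower per kb, so that Stk4 gave 84.6% to 91.1% of the summed MST level, and its log2 fold change was -0.03 (SE 0.14). The scaffold Sav1 had a log2 fold change of 0.05 (SE 0.12), and its exons overlap those of Atl1 over 1336 bases. Of the LATS partners, Mob1a was higher in Cre in all 3 clones by a small margin, at 171, 177 and 199 CPM in Cre, against 161, 163 and 180.3 CPM in Flp. The groups of Mob1a overlapped, with a log2 fold change of 0.12 (SE 0.10), and Mob1a gave 86.1% to 89.2% of the summed MOB1 level per kb.

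The upstream regulators were set apart by Ajuba. Nf2, the gene of the membrane-linked tumour suppressor merlin, Wwc1, the gene of KIBRA, and Frmd6, a relative of fly Expanded, had log2 fold changes of 0.10 to 0.11 with overlapping groups. Wwc1 was the most abundant of the 3 per kb, at a mean of 104 CPM per kb, against 29.2 for Nf2 and 6.20 for Frmd6. Ajuba (ENSMUSG00000022178, chr14:54567472-54577558), a LIM-domain protein that binds and restrains LATS kinases, was at 218, 422 and 404 CPM in Cre clones 4, 7 and 21, against 258, 245 and 197 CPM in Flp clones 4, 7 and 21. Cre was below Flp in clone 4 and above all Flp libraries in clones 7 and 21. The log2 fold change was 0.53 (SE 0.25, 95% interval -0.10 to 1.16), with an edgeR adjusted p of 0.786, and it was 0.27 without clone 21 and 0.91 without clone 4. Limd1, a LIM-domain relative of Ajuba, was the only core member lower in Cre in all 3 clones, at 134, 122 and 115 CPM in Cre, against 151, 122 and 139 CPM in Flp. In clone 7 the Limd1 log2 ratio was only -0.01, and the fitted value was -0.15 (SE 0.11).

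Of the proteins that hold YAP, TAZ or TEAD in check, none had a log2 fold change past 0.17. Among the angiomotins, junction proteins that bind YAP and TAZ, Amotl2 gave 54.9% to 69.8% of the summed level per kb, Amot 19.0% to 31.6% and Amotl1 11.2% to 17.0%. Amotl2 (ENSMUSG00000032531) was at 592, 809 and 744 CPM in Cre clones 4, 7 and 21, against 704, 739 and 556 CPM in Flp clones 4, 7 and 21, a spread with no common direction. Ptpn14, a phosphatase that binds YAP, was at 469, 521 and 488 CPM in Cre, against 431, 496 and 393.5 CPM in Flp. Cre was the higher in each clone, but the groups overlapped, with a log2 fold change of 0.17 (SE 0.11). Vgll4, which competes with YAP for TEAD, was at 80.4 to 82.5 CPM in the 3 Cre libraries and at 76.5 to 96.1 CPM in the 3 Flp libraries.

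The core members that passed 2-fold between libraries, Lats2, Ajuba and Stk4, lie on chromosomes 14 and 2. In earlier results of these data, stretches of these and other chromosomes shifted together in single clones. Each member was therefore set beside the genes around it. For the 35 members with at least 8 expressed genes (mean of at least 5 CPM) within 5 Mb, the median log2 ratio of those neighbours was taken in each clone. This median passed 0.3 in either direction for no member in clone 4, for Lats2 and Ajuba in clone 7 and for Lats2, Ajuba and Stk4 in clone 21. The 79 neighbours of Lats2 had medians of 0.03, 0.86 and 0.78 in clones 4, 7 and 21, and Lats2 itself had ratios of 0.06, 0.76 and 1.20. The 87 neighbours of Ajuba, whose window overlaps that of Lats2, had medians of 0.05, 0.93 and 0.78, and Ajuba itself had ratios of -0.24, 0.78 and 1.03. In clone 7 Lats2 and Ajuba were therefore slightly below their surroundings, by 0.11 and 0.14, and in clone 21 they were above them, by 0.42 and 0.26.

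Measured against the median of the 6 libraries, the stretch on chromosome 14 departed in Cre cultures and that on chromosome 2 in a Flp culture. The neighbours of Lats2 stood at 0.79 in Cre clone 7 and 0.66 in Cre clone 21, against -0.10 and -0.13 in Flp clones 7 and 21. The 64 neighbours of Stk4 stood at -0.06 in Cre clone 21 and at 0.42 in Flp clone 21, and Stk4 itself stood at 0.12 in Cre clone 21 and at 0.91 in Flp clone 21. In clone 21, 4 of the 64 Stk4 neighbours had a log2 ratio above 0, and 77 of the 79 Lats2 neighbours did. Why the stretch on chromosome 14 shifted in clones 7 and 21 and that on chromosome 2 in clone 21 was not tested. Without Lats2, Ajuba and Stk4, the core median was 0.06, no remaining core member had a log2 fold change past 0.17, and none had an unadjusted p under 0.05 in edgeR's test. This alternative was chosen after seeing the data. It left out the core members with the largest log2 fold changes, and Lats2 was the only core member under that p. The last 2 results therefore follow from the choice.

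**Figure D2:**
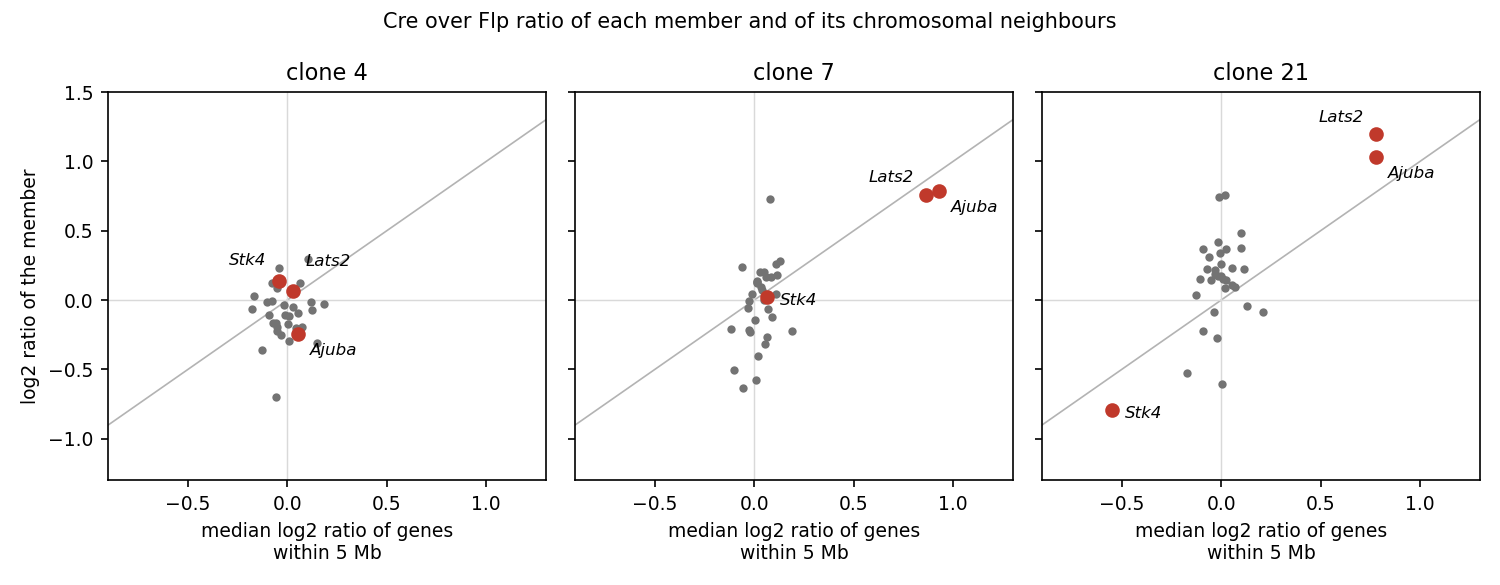
Log2 ratio (Cre over Flp) of each of 35 members against the median log2 ratio of expressed genes within 5 Mb, with a panel for each clone, a point for each member and a grey line where the values are equal. Lats2 and Ajuba lie far to the right in clones 7 and 21 and Stk4 lies to the left in clone 21, while the neighbour medians of the other members lie within 0.3 of 0.

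The target genes did not move together. Of the 13 targets tested, 7 had a log2 fold change above 0 and 6 below 0, beside 50.7% above 0 among all genes tested. None was higher in Cre in all 3 clones, beside 14.6% of all genes, and 2 were lower in all 3 (Nt5e and Ccdc80), beside 13.1%. By clone, 2, 4 and 9 of the 13 had a ratio above 0 in clones 4, 7 and 21, with medians of -0.12, -0.22 and 0.34, while 49.9%, 50.6% and 50.2% of all genes were above 0. Among genes that averaged 10 CPM or more, as 35 of the 36 members did, 43.7%, 55.5% and 49.2% were above 0 in clones 4, 7 and 21. The sign of the target median thus turned with the clone, and it was -0.22 without clone 21. Of the 23 core members 8, 15 and 19 were above 0, with medians of -0.04, 0.07 and 0.15 in clones 4, 7 and 21.

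The matrix proteins Ccn1 (CYR61) and Ccn2 (CTGF), the targets most often read as a measure of YAP and TAZ activity, were the most abundant members, at means of 433 and 351 CPM per kb. Ccn1 (ENSMUSG00000028195, chr3:145646976-145649981) was at 707.5, 886 and 836 CPM in Cre clones 4, 7 and 21, against 1147, 783 and 886 CPM in Flp clones 4, 7 and 21. Flp clone 4 was the highest library, Cre was the higher in clone 7 alone, and the log2 fold change was -0.20 (95% interval -0.66 to 0.26). Ccn2 (ENSMUSG00000019997, chr10:24595442-24598683) was at 863, 819 and 1396 CPM in Cre, against 988 (clone 4), 962 (clone 7) and 998 (clone 21) CPM in Flp. The Flp libraries lay close together, while Cre was below them in clones 4 and 7 and above them in clone 21, with a log2 fold change of 0.02 (95% interval -0.41 to 0.45). Exons of Ccn2 overlap those of Gm15270 over 665 bases, and reads from there may have been counted for Ccn2, for Gm15270 or for neither.

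Other established targets varied among clones in either direction. Ankrd1, which encodes an ankyrin repeat protein of the nucleus, was at 55.3, 53.1 and 46.9 CPM in Cre clones 4, 7 and 21, against 58.2, 31.9 and 71.3 CPM in Flp clones 4, 7 and 21. Its clone ratios of -0.07, 0.73 and -0.60 gave a log2 fold change of 0.01 (SE 0.26), whose sign turned in some other fits. Axl, a receptor tyrosine kinase, was at 118, 101 and 153 CPM in Cre, against 116, 126 and 91.3 CPM in Flp, so that Cre was well above Flp in clone 21 and below it in clone 7. The kinase gene Nuak2 showed its lowest level in Flp clone 21, at 33.7 CPM, against 48.3 to 68.7 CPM in the other 5 libraries. Fjx1, the mouse relative of fly four-jointed, was the lowest of the targets tested and the most variable, at 4.52, 3.64 and 4.55 CPM in Cre, against 10.5, 4.03 and 1.84 CPM in Flp. Its 95% interval, from -1.33 to 1.23, was the widest of the members and leaves a change of 2-fold in either direction possible.

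The targets with the smallest unadjusted p were Nt5e and Ccdc80, each lower in Cre. Nt5e (ENSMUSG00000032420, chr9:88327197-88372092), the gene of CD73, a surface enzyme that makes adenosine, was at 485, 287 and 327.5 CPM in Cre clones 4, 7 and 21, against 491, 445 and 472 CPM in Flp clones 4, 7 and 21. The Flp libraries were close together, Cre clone 4 lay among them, and Cre clones 7 and 21 lay below. The log2 fold change was -0.39 (SE 0.15, 95% interval -0.77 to -0.02) with an edgeR adjusted p of 0.6967, and it ranged from -0.58 without clone 4 to -0.27 without clone 7. The neighbours of Nt5e within 5 Mb had median ratios of -0.10, -0.06 and -0.17. Ccdc80 (ENSMUSG00000022665, chr16:45093402-45128077), a secreted matrix protein, was at 145, 155 and 157 CPM in Cre, against 179, 205 and 162 CPM in Flp. It was the only member whose groups did not overlap, beside 3.95% of all genes with Cre below Flp and 4.19% with Cre above, and its log2 fold change was -0.25 (SE 0.11, edgeR adjusted p of 0.7614).

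**Figure D3:**
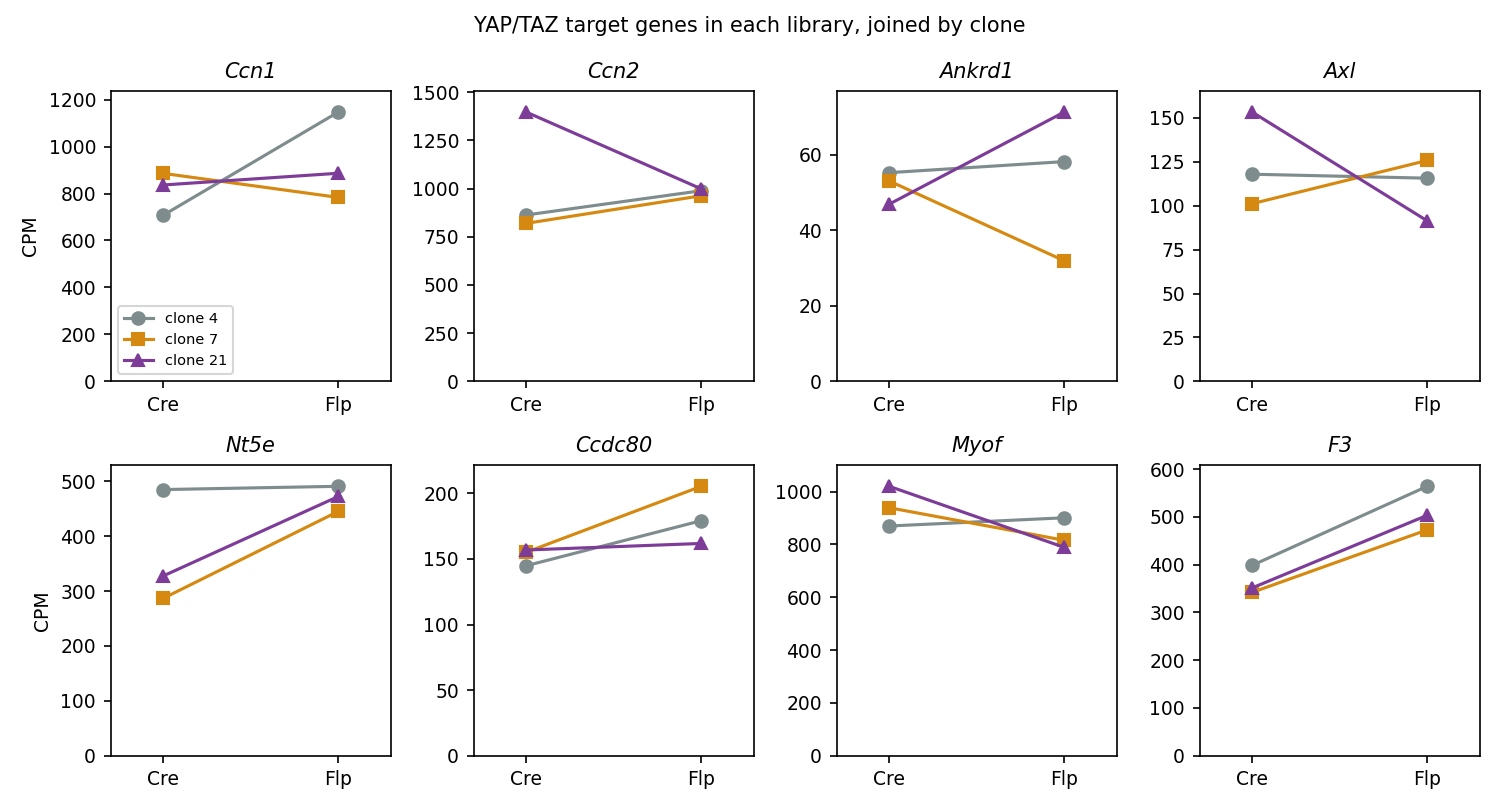
CPM in the Cre (left) and Flp (right) library of each clone, joined by clone, for 7 target members and for F3, with axes from 0. The lines of Ccn1, Ccn2, Ankrd1, Axl and Myof slope in different directions among clones, while Nt5e, Ccdc80 and F3 are lower in Cre than in Flp in all 3 clones. The difference is slight for Nt5e in clone 4 and for Ccdc80 in clone 21.

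The remaining targets lay within a narrow range. Asap1, which acts on Arf proteins, Crim1, a membrane protein that binds bone morphogenetic proteins, Gadd45b, a stress-response gene, Arhgef17, a guanine nucleotide exchange factor, and Myof, the membrane repair protein myoferlin, had log2 fold changes from -0.08 (Crim1) to 0.17 (Myof). Myof was at 869.8, 939 and 1020.3 CPM in Cre clones 4, 7 and 21, against 901, 816 and 789 CPM in Flp clones 4, 7 and 21. Cre was the lower in clone 4 and the higher in the other clones. Exons of Yap1, Tead2, Ptpn14, Crim1 and Arhgef17 overlap those of other genes over 13 to 177 bases, whose reads could not be told apart. The 3 targets that were not tested were hardly detected, as Igfbp3, an insulin-like growth factor binding protein, had 0 reads in all 6 libraries and Foxf2 and Rbms3 had at most 2 reads in any library. At 0 reads, levels of up to 0.0632 to 0.121 CPM, by library, were not detectable.

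**Figure D4:**
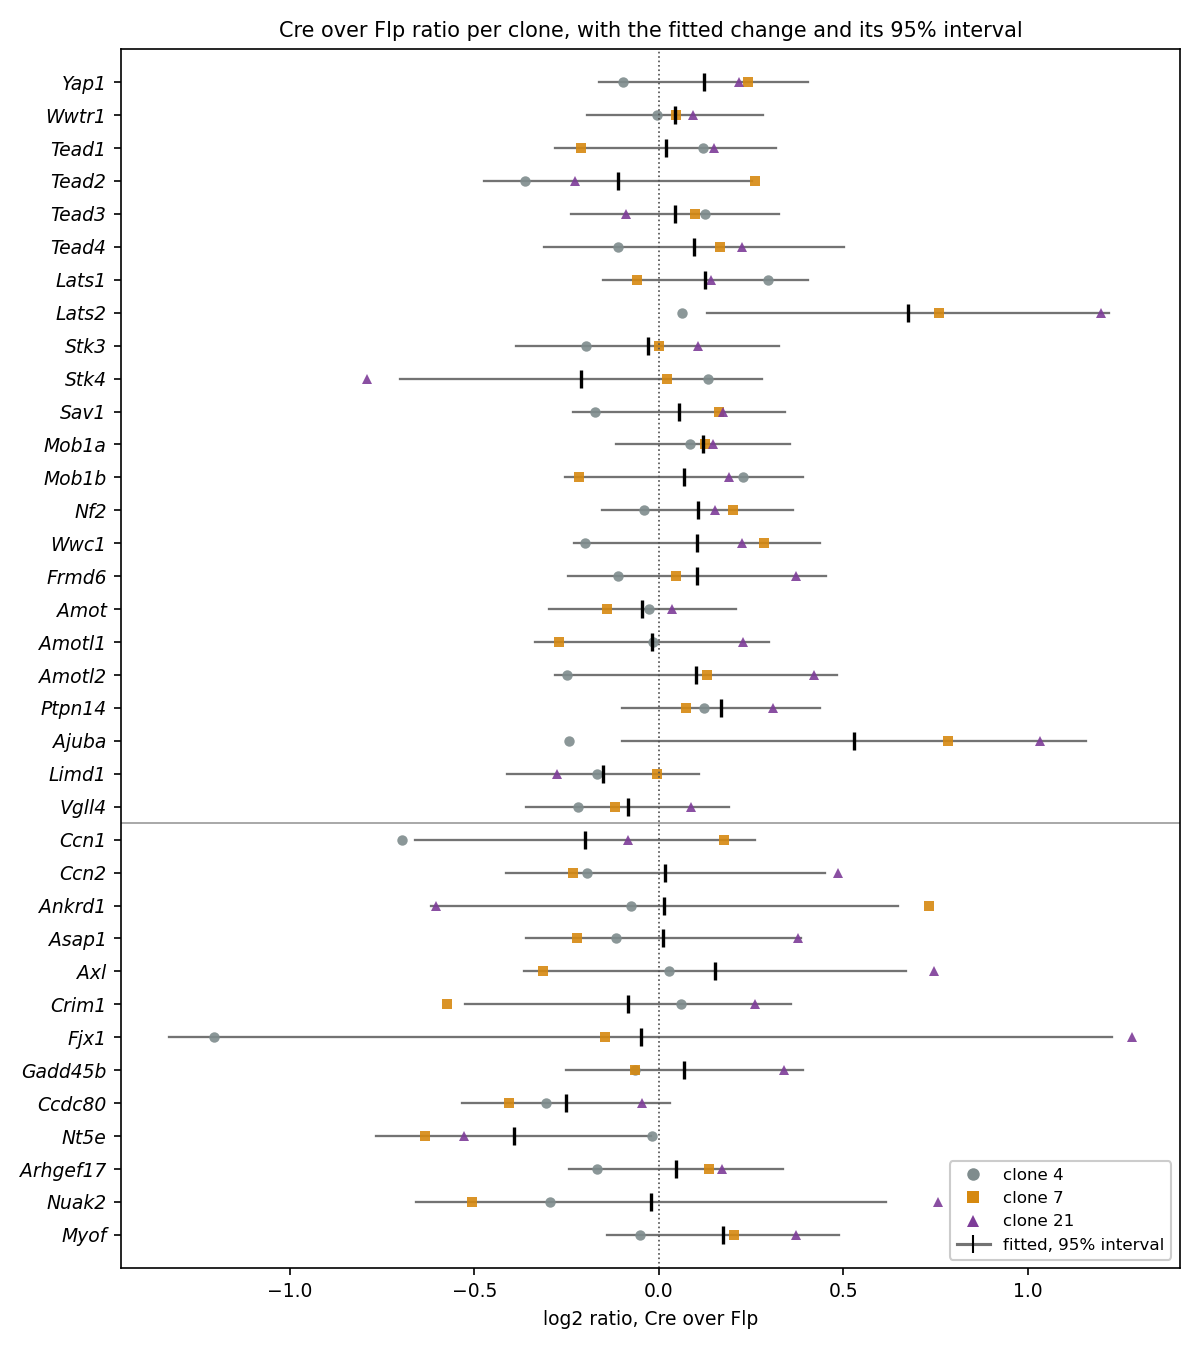
Log2 ratio (Cre over Flp) of each of the 36 members tested in clones 4, 7 and 21 (coloured symbols), with the fitted log2 fold change (black tick) and its 95% interval (grey line). The intervals of Lats2 and Nt5e leave out 0, while those of the other 34 members include it.

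Other genes of the pathway, outside the 39, were read from the same fit. Of 33 further upstream and complex genes 30 were tested, and none passed the adjusted p in edgeR's test. Beside 6.82% of all genes, 1 of the 30 had an unadjusted p under 0.05. This was Slmap, which brings a phosphatase complex to MST kinases, with a log2 fold change of 0.63 (SE 0.18, edgeR adjusted p of 0.6349). The value was 0.41 without clone 21. Slmap passed in edgeR without the filter on low counts (adjusted p = 0.0460), and over all fits its adjusted p ran up to 1. Slmap lies at chr14:26413168-26534931, where its neighbours had median ratios of 0.14, 0.54 and 0.76 in clones 4, 7 and 21, and it was at 86.8, 163 and 181 CPM in Cre, against 78.1, 103 and 86.8 CPM in Flp. Next by p were Map4k3, of a kinase family that can activate LATS, at 0.20 (SE 0.11), and Btrc, an F-box protein that marks YAP for degradation, at 0.19 (SE 0.12).

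Of 15 further target genes 12 were tested, and none passed the adjusted p in edgeR's test. At an unadjusted p under 0.05 there were 3 of the 12, 1 higher and 2 lower in Cre, beside 6.82% of all genes. DESeq2 with the same block called 2 of the 12 after adjustment, beside 1.47% of its genes. This list was chosen with earlier results of these data known. F3 (chr3:121723537-121735048), the tissue factor that starts coagulation, was at 399, 342 and 351 CPM in Cre clones 4, 7 and 21, against 564, 473 and 503.5 CPM in Flp clones 4, 7 and 21. Every Cre library lay below every Flp library. The log2 fold change of F3 was -0.50 (SE 0.10). Its adjusted p was 0.6065 in edgeR and 0.012 in DESeq2 with the same block. DESeq2 with the block was the only fit in which F3 passed, and over all fits, those that left out a clone among them, its adjusted p ran up to 1. F3 had a log2 fold change of -0.51 to -0.49 in the fits that left out 1 clone. Its ratio was -0.50, -0.47 and -0.52 in the 3 clones, and its neighbours had medians of 0.04, 0.09 and 0.00. Dock5, an exchange factor for Rac on chromosome 14, had a log2 fold change of 0.43 (SE 0.14) that was 0.27 without clone 7, and its neighbours had median ratios of 0.05, 0.92 and 0.65. The summed levels of fibroblast markers overlapped between the groups, and their part in these differences was not tested.

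The authors' deposited table gives a log2 fold change for 38 of the 39 members and an adjusted p for 36, and none of these passed 0.05, beside 1.37% of its 12973 genes with an adjusted p. In the authors' deposited table the extremes among the members were Lats2 at 0.54, with the smallest adjusted p of 0.0986, and Nt5e at -0.33. The authors' deposited table lists Slmap at 0.55 (adjusted p = 0.0407) and F3 at -0.46 (adjusted p = 0.00843). For 35 of the 36 members tested here the sign in the authors' deposited table was that of the log2 fold change computed from the counts. The mean of normalized counts in the authors' deposited table was 0.356 times that from the count files for Mob1a, 0.470 times for Mob1b and 0.403 times for Vgll4. In the authors' deposited table this mean was 0.789 times that from the counts for Wwc1 and 1.31 times for Ccn2, beside a median of 0.993 over 10774 genes. Why these 5 members differ was not tested.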

How the data were processed

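Total RNA of 6 cultures (3 Cre, 3 Flp) was sequenced. Per the submitters' processing notes, reads were handled with STAR 2.5.2b-2, featureCounts 1.6.0.3, Trim Galore 0.4.3.0 and FastQC 0.67 and compared with DESeq2 2.11.40.1, on the builds mm10 and GRCm38. The strand setting and the annotation used for counting are not stated in the sources at hand. The authors deposited raw counts per gene without normalization. The authors' deposited table holds the log2 fold change with its error, the mean normalized signal of all libraries, the Wald score, the p-value and the adjusted p-value, in which positive values were taken to mean a higher level in Cre, as 95.6% of 12823 signs were those found here.

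Symbols, exon lengths and GRCm38 coordinates came from GENCODE M21, where 49326 of 49671 identifiers had an entry. In R 4.3.3, genes with low counts were dropped (filterByExpr), libraries were scaled by TMM and edgeR 4.0.16 quasi-likelihood tests were fitted with clone as a block, with Benjamini-Hochberg adjustment and a threshold of 0.05. Each SE was computed from the F statistic, and log2 ratios per clone used a prior count of 2. The script was tested on simulated data. Alternatives used limma 3.58.1 (voom), DESeq2 1.42.0, 3 normalizations, 2 filters, no block, and each clone left out. Figures were drawn with matplotlib 3.10.9.

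The clone block follows the series' design. The correlation of the Cre and Flp deviations from their group means was 0.20, 0.11 and 0.30 for clones 4, 7 and 21, and -0.27 to 0.02 for libraries of different clones and groups. By correlation of whole libraries, only Flp clone 4 was closest to its partner, Cre clone 4 (0.9804). Cre clone 7 had 0.9701 with Flp clone 7 and 0.9779 with Cre clone 21, and Flp clone 7 had 0.9835 with Cre clone 4. These values do not clearly pair the libraries by clone, and the pairing was taken from the design. No libraries agreed within sampling noise (chi-square per degree of freedom of at least 38.3). Members and lists were chosen with earlier results of these data known. All 39 members are named, with Pkd1 and the 3 genes of smallest p from each list of other pathway genes, of which 1 is not reported here.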

Additional observations from a re-analysis of the deposited data

How the results depend on the processing

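Under the 12 other fits, 0 members passed the adjusted p. Over all genes, edgeR's test called 0 (1047 at an unadjusted p under 0.05), DESeq2 195 with the clone block and 13 without it, and edgeR with no filter on low counts 224. Without the replicate block, edgeR called 0 members and 0 genes (716 unadjusted), and the target median was -0.06 in place of 0.01. The core median stayed above 0 in the fits run and was 0.06 without Lats2, Ajuba and Stk4, an alternative chosen after seeing the data. Over the fits that left out 1 clone, the core median was 0.02 to 0.07 and the target median -0.22 to 0.13. With all libraries kept, the log2 fold change turned sign for Ankrd1 (-0.055 in edgeR and -0.057 in DESeq2 without the block, -0.017 in limma-voom) and for Amotl1 (0.00080 with total counts). Leaving out 1 clone turned the sign of 20 of 36 members, with ranges of -0.050 to 0.14 for Tead1, -0.29 to 0.016 for Tead2, -0.10 to 0.052 for Stk3, -0.39 to 0.074 for Stk4, -0.0085 to 0.17 for Sav1, -0.013 to 0.21 for Mob1b, -0.035 to 0.21 for Frmd6, -0.087 to 0.0054 for Amot, -0.15 to 0.11 for Amotl1, -0.063 to 0.27 for Amotl2, -0.39 to 0.046 for Ccn1, -0.22 to 0.15 for Ccn2, -0.34 to 0.33 for Ankrd1, -0.17 to 0.13 for Asap1, -0.15 to 0.39 for Axl, -0.26 to 0.16 for Crim1, -0.69 to 0.57 for Fjx1, -0.069 to 0.14 for Gadd45b, -0.019 to 0.15 for Arhgef17 and -0.40 to 0.23 for Nuak2. The other 16 members kept their sign in all fits. A prior count of 0.5 moved 0 of 108 clone ratios beyond the spread over clones, and a window of 10 Mb moved 2 of 105 neighbour-adjusted ratios. With 3 libraries per group, the 95% intervals show how large a change these data leave possible.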
